A study of Mus musculus with 2 samples.

Results

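The heat shock proteins and their DnaJ partners are the molecular chaperones of the cell, and this account follows all 74 nuclear protein-coding genes of the mouse annotation (GENCODE M21) whose symbol begins with Hspa, Hspb, Hspd, Hspe, Hsph, Hsp90 or Dnaj. They are 74 of 22015 nuclear protein-coding genes and of 55536 annotated genes. By structure they comprised 11 HSP70 genes, 3 HSP110 genes, 3 HSP90 genes, 2 chaperonin genes, 7 small heat shock protein genes, 4 DNAJA, 13 DNAJB and 28 DNAJC genes, and 3 genes that carry a heat shock protein symbol without being chaperones of these families (Hspbp1, Hspbap1 and Hspb11). The tissue was adrenal gland of male mice, taken at an age of 10 days without any stated treatment. Their strain is labelled B6CASTF1/J, also written B6Cast F1, a cross of C57BL/6 and CAST mice. From each of 2 samples, 300 ng of total RNA with ERCC spike-ins gave 1 library, called replicate 1 and replicate 2 after the labels. The labels give the samples different animal numbers in one field and the same number and the same donor identifier in others, so the spread between them may be that of animals or only of samples.

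An HSP70 chaperone holds an unfolded stretch of protein while it burns ATP, a DnaJ protein brings it the client and starts the ATP hydrolysis, and a nucleotide exchange factor such as an HSP110 protein resets it. HSP90 acts later, on nearly folded clients that include the steroid hormone receptors, and the mitochondrial chaperonin encloses a client in a cage made of Hspd1 and closed by Hspe1. Small heat shock proteins hold clients without ATP. Each compartment has its own set, and many families pair a constitutive gene with a paralogue that heat shock factor 1 induces when unfolded proteins accumulate. In the adrenal gland the mitochondria of the cortex carry out much of steroid synthesis, and the chromaffin cells of the medulla fold and package large amounts of secretory protein.

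Heat induction is known to act through the promoter, so the stretches upstream of the start site are shown for some of the inducible members compared below. RefSeq promoter windows (GRCm38.p6) were matched for 60 of the 74 members. The 250 bases upstream of the RefSeq start nearest to the GENCODE gene start were read. The distance between these starts ran from 0 bases, as for Hspa1a, Hspa1b and Hspb1, to 44081 bases (Dnaja3). All sequences are those of the reference genome, and the alleles of these cross-bred mice were not read. Hspa1a and Hspa1b, the classical heat-inducible HSP70 genes, lie on the minus strand at chr17:34972157-34972406 and chr17:34959239-34959488 for the stretches shown, and Hspb1, the small heat shock protein HSP25, lies on the plus strand at chr5:135887669-135887918. Capitals mark a heat shock element of 2 units, GAANNTTC or TTCNNGAA, where N is any base and each form is its own reverse complement.
Hspa1a: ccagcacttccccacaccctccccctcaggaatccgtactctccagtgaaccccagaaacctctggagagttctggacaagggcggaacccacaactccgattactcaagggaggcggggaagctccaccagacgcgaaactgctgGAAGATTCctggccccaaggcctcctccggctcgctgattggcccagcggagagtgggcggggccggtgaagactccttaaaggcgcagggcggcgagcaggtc
Hspa1b: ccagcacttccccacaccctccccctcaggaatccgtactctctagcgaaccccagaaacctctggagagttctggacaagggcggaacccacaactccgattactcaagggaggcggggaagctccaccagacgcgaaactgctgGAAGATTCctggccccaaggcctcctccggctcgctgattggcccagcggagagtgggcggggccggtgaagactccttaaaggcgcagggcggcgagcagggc
Hspb1: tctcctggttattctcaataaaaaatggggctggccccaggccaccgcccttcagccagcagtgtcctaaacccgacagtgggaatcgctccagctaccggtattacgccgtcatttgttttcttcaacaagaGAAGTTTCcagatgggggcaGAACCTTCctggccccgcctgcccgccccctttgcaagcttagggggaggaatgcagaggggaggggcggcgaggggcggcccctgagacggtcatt
The Hspa1a and Hspa1b stretches were identical at 247 of 250 bases. Counted from 1 at the 5′ end of the stretch, with the base of Hspa1a first, the differences were C44T, T47C and T249G. Both held the same element at -104 to -97 from the start site, and Hspb1 held a pair, at -117 to -110 and at -97 to -90.

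Shorter stretches show the elements of Hsph1 and Hspe1, and the endoplasmic reticulum stress element of the main chaperones of that compartment. Hsph1 is the heat-inducible HSP110 (minus strand, chr5:149636351-149636380) and Hspe1 the chaperonin lid (plus strand, chr1:55088053-55088082). Hspa5, the endoplasmic reticulum HSP70 known as BiP (plus strand, chr2:34772020-34772048), and Hsp90b1, its HSP90 partner known as GRP94 (minus strand, chr10:86705633-86705661 and chr10:86705528-86705556), carry in capitals the letters CCAAT and CCACG with 9 bases between them, or their reverse complement.
Hsph1: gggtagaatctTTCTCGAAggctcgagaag
Hspe1: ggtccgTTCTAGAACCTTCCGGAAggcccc
Hspa5: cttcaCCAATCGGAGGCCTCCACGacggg
Hsp90b1, distal: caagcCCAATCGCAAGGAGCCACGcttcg
Hsp90b1, proximal: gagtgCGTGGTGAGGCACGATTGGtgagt
In Hspe1 the capitals join 3 overlapping 2-unit matches, which together hold the 3-unit elements GAANNTTCNNGAA and TTCNNGAANNTTC. The heat shock element of 2 units was found upstream of 4 of the 5 inducible members with a window (Hspa1a, Hspa1b, Hsph1 and Hspb1, but not Dnajb1), of 10 of 60 members, and of 12% of the 16521 nuclear protein-coding genes with a window. It was found in 0 of the 3 constitutive members with a window (Hspa4, Dnaja2 and Hspa14). The constitutive Hspa8 and Hsp90ab1 and the inducible Hsp90aa1 had no matched window. So few windows do not show whether the constitutive list differs from all genes. The 3-unit element stood upstream of 2 members, Dnajb6 and Hspe1, against 0.357% of all windows. The endoplasmic reticulum stress element stood upstream of 3 members, Hspa5, Hsp90b1 and Dnajc3, all of that compartment, against 0.145% of all windows. A match describes these letters in this window and does not show that a factor binds there. Upstream refers to the RefSeq start, which lay 120 bases from the GENCODE gene start for Hspa5 and 40 bases for Hsph1. The elements shown for Hspa5 and Hsph1 lie inside the genes as GENCODE annotates them.

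The gene tables held 36652695 expected counts on annotated genes in replicate 1 and 38641442 in replicate 2. Marker genes of both adrenal compartments were high, with summed levels of 5892 and 5141 TPM for 7 cortex genes and of 1492 and 1242 TPM for 6 chromaffin genes (TPM is a level per transcript length, relative to all transcripts of the library). Markers of other tissues differed between the libraries: all 7 skeletal muscle genes were more than 2-fold higher in replicate 2 (summed level 320 and 868 TPM), as were all 6 liver genes (3663 and 11500 TPM) and 4 of 6 smooth muscle and pericyte genes (81.5 and 151 TPM). A summed level of 3450 and 3044 TPM over 5 brown adipocyte genes was present in both. Of 5 male germ cell genes, 4 (Prm1, Prm2, Tnp1 and Acrv1) had 0 counts in both libraries. In whole tissue, a change in the number of cells of a type and a change in RNA per cell cannot be told apart.

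Most of the chaperone genes were expressed. At least 1 TPM in both libraries was reached by 64 of the 74 members (86.5%), against 56.7% of nuclear protein-coding genes. Together the members made up 0.99% of nuclear protein-coding TPM in replicate 1 and 0.885% in replicate 2 (0.938% ± 0.074, SD, n = 2), while they are 0.336% of those genes by number. By the mean of both libraries, 8 members (10.8%) stood at 100 TPM or more, against 2.43% of nuclear protein-coding genes. Between 10 and 100 TPM were 32 members (43.2% against 25.4%), and between 1 and 10 TPM were 26 (35.1% against 30.6%). Below 1 TPM were 8 members (10.8% against 41.6%). The 5 most abundant members held 51.1% of member TPM (SD 1.3, n = 2) and the first 10 held 72.8% (SD 0.67, n = 2). No such share was computed for other sets of genes. By family, HSP70 genes held 30.7% of member TPM, HSP90 genes 20.6%, DNAJC genes 17.9%, the chaperonin pair 16%, DNAJA genes 5.96%, DNAJB genes 4.34%, HSP110 genes 2.31% and small heat shock proteins 1.47%. Of the mean of 558 TPM of the DNAJC genes, 166 TPM was Dnajc15. Its transcript labelled protein-coding gave 4.82 TPM of that, so the place of the DNAJC genes above the chaperonin pair depends on transcripts without that label.

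**Figure D1:**
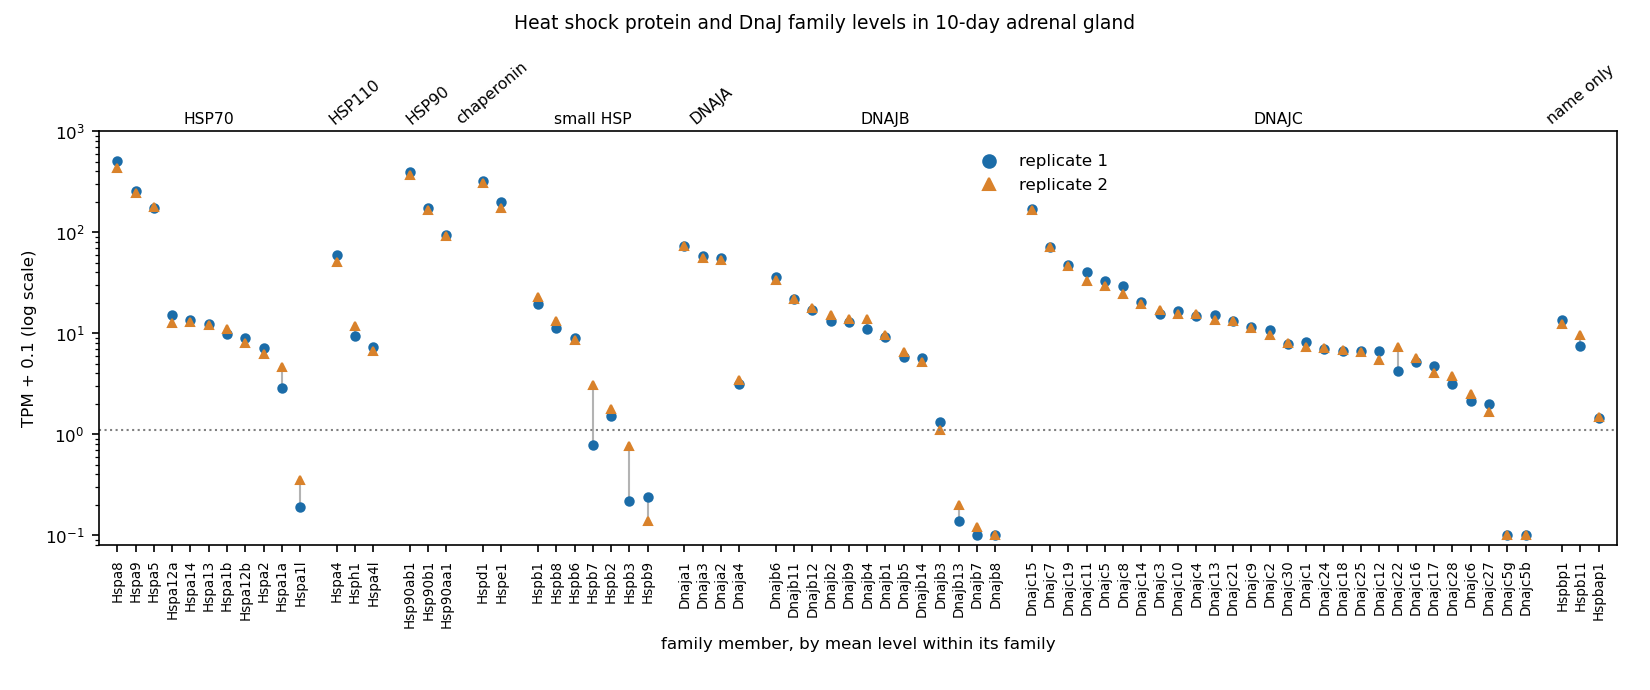
Level of each of the 74 members (TPM + 0.1, logarithmic axis) in replicate 1 (circles) and replicate 2 (triangles), ordered by mean level within each family; a grey line joins the libraries and the dotted line marks 1 TPM. Hspa8, Hsp90ab1 and Hspd1 stand highest, the libraries nearly coincide for most members, and Hspb7 and Hspb3 show the widest gaps among the small heat shock proteins.

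Among the HSP70 genes, the constitutive cytosolic Hspa8 (HSC70), which also uncoats clathrin vesicles, was the most abundant member of all, with TPM values of 500 in replicate 1 and 429 in replicate 2. The mitochondrial Hspa9 (mortalin), the motor of protein import, followed at 258 and 243 TPM. The endoplasmic reticulum Hspa5 stood at 173 and 179 TPM. These 3 genes serve 3 different compartments, and no other HSP70 gene came above 14.9 TPM in either library. The divergent Hspa12a and Hspa12b stood at 14.9 and 12.4 TPM and at 8.90 and 7.81 TPM. Hspa14, which works on the ribosome with Dnajc2, stood at 13.4 and 12.9 TPM, and Hspa13 at 12.2 and 11.9 TPM. Hspa2, known for its part in male meiosis, was present at 7.05 and 6.17 TPM, whereas the testis gene Hspa1l was at 0.09 and 0.25 TPM.

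The HSP90 genes were all abundant. Hsp90ab1, the constitutive cytosolic form, stood at 393 and 369 TPM, Hsp90b1 of the endoplasmic reticulum at 174 and 166 TPM, and Hsp90aa1, the inducible cytosolic form, at 94.5 and 91.5 TPM. Each library gave the same order, and the level of each gene in replicate 2 was within 10% of that in replicate 1. Among the HSP110 exchange factors the constitutive Hspa4 led with 59.3 and 50.1 TPM, ahead of the inducible Hsph1 with 9.31 and 11.7 TPM and Hspa4l with 7.24 and 6.51 TPM. Hsph1 was the one HSP110 gene that was higher in replicate 2.

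The inducible list (Hspa1a, Hspa1b, Hsp90aa1, Hsph1, Dnajb1 and Hspb1) lay below the constitutive list (Hspa8, Hsp90ab1, Hspa4, Dnaja2 and Hspa14) in both libraries. The median of log2(TPM + 0.1) of the inducible list minus that of the constitutive list was -2.62 in replicate 1 and -2.21 in replicate 2, a mean of -2.42 ± 0.29 (SD, n = 2), which is 5.33-fold. The inducible genes held 4.74% of member TPM and the constitutive genes 31.0%. The lists overlapped: Hsp90aa1 exceeded 3 of the 5 constitutive genes, and Hspa14 was below Hspb1. With 2 libraries the smallest two-sided exact p is 0.5, so these differences are given as values only. Counting only the transcripts annotated as protein-coding, a choice made after seeing the data, the difference was -1.91. The share depends on the list: a wider inducible list, which adds Dnaja1, Dnajb4, Hspd1, Hspe1 and Hspb8, held 23.8% of member TPM. With that list and all transcripts, the difference was -2.16.

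The gap between paralogues differed from family to family. Hspa1a stood at 2.74 and 4.53 TPM and Hspa1b at 9.78 and 10.9 TPM, so that Hspa8 exceeded their sum by 5.32 and 4.8 on the log2 scale, 33.3-fold on average. Hspa4 exceeded Hsph1 by 2.67 and 2.10 on the log2 scale (2.38 ± 0.41, SD, n = 2). Hsp90ab1 exceeded Hsp90aa1 by 2.06 and 2.01 (2.03 ± 0.03, SD, n = 2), and by 1.72 in a second transcript table, which the authors made directly from the reads and an index. In the DNAJA pair the order was the other way round: Dnaja2 was below the inducible Dnaja1 by 0.39 and 0.46 on the log2 scale, with Dnaja1 at 72.2 and 72.6 TPM and Dnaja2 at 55.0 and 52.6 TPM. The spread between the libraries was widest for the pairs with Hsph1 or the Hspa1 genes.

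**Figure D2:**
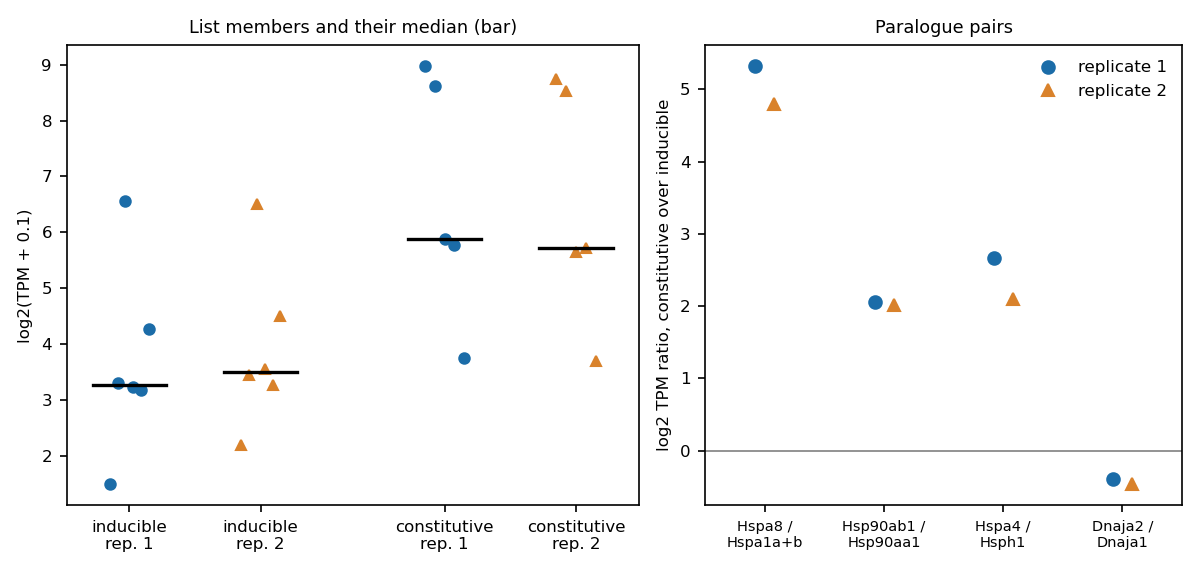
Left, log2(TPM + 0.1) of each gene of the inducible and constitutive lists in each library, with the list median as a bar; right, log2 TPM ratio of constitutive over inducible paralogues in replicate 1 (circles) and replicate 2 (triangles). The inducible medians lie lower in both libraries, and of the 4 pairs, Dnaja2 over Dnaja1 is the one below 0.

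Reads of Hspa1a and Hspa1b can be hard to assign. Of the 50-base windows of the longest coding transcript, 60.3% in Hspa1a and 62.3% in Hspa1b also occurred in a transcript of another gene, nearly all in each other. The authors' deposited interval of TPM ran for Hspa1a from 2.27 to 3.14 in replicate 1 and from 3.93 to 4.99 in replicate 2. For Hspa1b the authors' deposited interval ran from 8.93 to 10.3 in replicate 1 and from 10.0 to 11.5 in replicate 2. The intervals of Hspa1a did not overlap between the libraries, while those of Hspa1b did. The sum of both genes, which such sharing between them leaves unaffected, was 12.5 and 15.5 TPM, and its scaled counts were 1.26-fold higher in replicate 2 (counting interval 1.17 to 1.36). The windows shared with other genes, pseudogenes included, came to 73.2% for Hspa8, 58.5% for Hsp90aa1, 51.6% for Hspb1, 44.8% for Hspd1 and 36.1% for Hspe1, but to 0 of 3623 for Hspa5, so the levels of the former depend more on how the authors' tool divided reads.

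The mitochondrial chaperones were among the most abundant members, and the mitochondrial list of 9 genes held 34.2% of member TPM (SD 0.19, n = 2). That list includes Dnajc15, at a mean of 166 TPM, of which 4.82 TPM came from its transcript labelled protein-coding. Hspd1 (HSP60), the barrel of the chaperonin, stood at 322 and 304 TPM, and Hspe1 (HSP10), its lid, at 197 and 175 TPM. The genes lie head to head on chromosome 1 and their annotated 5′ ends share 112 bases. Hspd1 exceeded Hspe1 by 0.71 and 0.80 on the log2 scale, 1.69-fold on average. In the second transcript table the gap was narrower, with Hspd1 at 508 and 454 TPM and Hspe1 at 402 and 341 TPM. Hspa9 lay 0.32 below Hspd1 on the log2 scale in both libraries. Dnaja3 (TID1), the DnaJ protein of the matrix, stood at 57.9 and 55.4 TPM. Dnajc11, a protein linked to the cristae, stood at 39.9 and 33.0 TPM, while Dnajc30 and Dnajc28 were at 7.68 and 7.88 TPM and at 3.05 and 3.63 TPM. Replicate 2 was lower for 6 and higher for 3 of the 9 genes, with folds all below 1.5.

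The endoplasmic reticulum list of 8 genes held 13.9% of member TPM and was led by Hspa5 and Hsp90b1. By gene TPM both stood at nearly equal levels. Hspa5 minus Hsp90b1 was -0.01 on the log2 scale in replicate 1 and 0.11 in replicate 2 (0.05 ± 0.09, SD, n = 2). That mean was smaller than the spread. In the second transcript table Hspa5 was higher in both libraries, at 333 and 326 TPM against 247 and 227 TPM for Hsp90b1. The co-chaperones were lower. Dnajb11 (ERdj3), which binds nascent secretory proteins, stood at 21.6 and 21.9 TPM. Dnajc3 (p58IPK), known as an inhibitor of the kinase PERK, was at 15.3 and 16.9 TPM, and Dnajc10 (ERdj5), a disulfide reductase, at 16.4 and 15.4 TPM. Dnajb9 (ERdj4), a repressor of the stress sensor IRE1, was at 12.9 and 13.7 TPM and Dnajc1 at 8.08 and 7.25 TPM. Of the 8 genes, 4 were higher and 4 lower in replicate 2, and the median fold was 1.01.

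The DnaJ proteins give HSP70 its clients, and 39 of the 45 DNAJA, DNAJB and DNAJC genes reached 1 TPM in both libraries. Dnajb6, which holds back aggregation of polyglutamine proteins, led the DNAJB genes at 36.2 and 33.6 TPM. Dnajb1, the heat-inducible partner of HSP70, stood at 9.01 and 9.57 TPM, close to Hspa1b. The membrane proteins Dnajb12 and Dnajb14 stood at 17.0 and 17.5 TPM and at 5.56 and 5.07 TPM. Among the DNAJC genes, Dnajc7, which binds both HSP70 and HSP90, stood at 71.6 and 70.4 TPM. Dnajc5, the cysteine string protein of secretory vesicles, stood at 33.0 and 29.6 TPM, above Dnajc6 (auxilin), a neuronal factor of clathrin uncoating, by 4.01 and 3.62 on the log2 scale. Dnajc8, of pre-mRNA splicing, was at 28.9 and 24.5 TPM and Dnajc13, of endosomal sorting, at 15.1 and 13.5 TPM. Dnajc9, a histone chaperone, was at 11.5 and 11.2 TPM. The DNAJC genes without values of their own ran from a mean of 1.73 TPM (Dnajc27) to 19.7 TPM (Dnajc14). Among the remaining DNAJA and DNAJB genes, Dnajb2 stood at 13.08 and 14.97 TPM and Dnaja4 at 3.07 and 3.32 TPM. Dnajc12, a partner of the aromatic amino acid hydroxylases, stood at 6.57 and 5.28 TPM, below its medullary client tyrosine hydroxylase (Th) by 4.70 and 4.86 on the log2 scale.

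Dnajc15 was the most abundant DnaJ gene by gene TPM, at 169 and 164 TPM, and the authors' tables gave most of that to transcripts that GENCODE M21 does not label protein-coding. Dnajc15 is an inner mitochondrial membrane protein known to restrain complex I. A processed transcript of 419 bases, Dnajc15-203, took 56.2% and 57.0% of the gene's level, and Dnajc15-201, annotated as subject to nonsense-mediated decay, took 40.7% and 40.2%. The one transcript annotated as protein-coding, Dnajc15-202, stood at 5.12 and 4.52 TPM, 3.04% and 2.76% of the gene. The second transcript table gave it 1.28% and 1.18%. How these shares are read depends on the labels and on the division of reads: 60.6% of the 50-base windows of Dnajc15-201 and 56.5% of those of Dnajc15-203 also occur in Dnajc15-202, and with Dnajc15-201 counted as coding the share would be 43.8% and 43.0%. Since TPM is per length, short transcripts weigh heavily: Dnajc15 had 3699 and 3540 counts, not far above Dnaja2 (3518 and 3227), which stood at 55.0 and 52.6 TPM.

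Dnajc19, of the import motor, stood at 46.8 and 46.1 TPM, but the share of its coding transcripts differed between the authors' tables. In the first, a retained-intron transcript of 419 bases took 60.6% and 56.4%, and coding transcripts 39.4% and 43.6%; in the second, the coding transcripts took 100% in both libraries. Over the 66 members with a mean of at least 1 TPM, coding transcripts took a median of 95.2% of the level. The median over nuclear protein-coding genes at that level was close, 91.8%. In 41 members coding transcripts took more than 90%, a count not made over all genes. In 8 of the 66 (12.1%) they took less than 60%, against 12.7% of nuclear protein-coding genes at that level. The 8 were DnaJ genes (Dnajc15, Dnajc19, Dnajc25, Dnajc7, Dnaja2, Dnajc11, Dnaja1 and Dnajc24). By the mean of both libraries in the second table, below 60% were 6 members (9.09%), against 15.5% of those genes, and they were not the same set: Dnajc15, Dnaja2 and Dnajc11 were among them again, together with Dnajc9, Hspa4 (43.2% and 50.3%) and Hspb6 (46.5% and 63.2%), of which the last pair are not DnaJ genes. The main transcript carried a coding label in 34 of the 38 members with at least 2 transcripts and 10 TPM, and both tables chose the same one in 29. These counts were not made over all genes, so they are not read as particular to the members. For Hspa8 the tables chose different ones: Hspa8-202 took 38.1% and 38.8% in the first table and 0.469% and 0% in the second, where Hspa8-201 led.

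**Figure D3:**
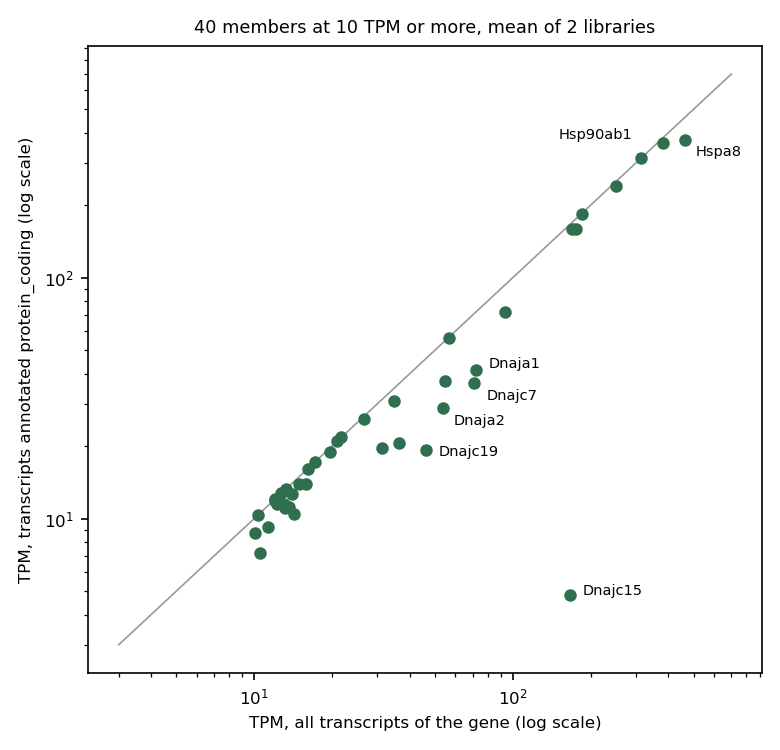
TPM of transcripts annotated protein-coding against TPM of all transcripts of the gene (both axes logarithmic, mean of 2 libraries) for the 40 members at 10 TPM or more; the line marks equality. Many members lie on or close to the line. Dnaja1, Dnaja2, Dnajc7, Dnajc11 and Dnajc19, with coding shares below 60%, lie clearly below it. Dnajc5, Hspa4, Hsph1, Dnajc13, Hsp90aa1 and Hspa8 also lie below it, with shares from 62.9% to 80.6%. Dnajc15 stands at 4.82 of 166 TPM, with its transcript Dnajc15-201 left out because of its nonsense-mediated decay label.

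The testis list was close to silent. None of its 8 genes reached 1 TPM in both libraries, and their levels summed to 1.5 and 1.4 TPM. The list leaves out Hspa2, the gene known for its part in male meiosis, which stood at 7.05 and 6.17 TPM. The low sum thus holds for the genes listed. Dnajb8, Dnajc5b and Dnajc5g had 0 counts in both libraries, where the limit that a count of 0 allows is 3 counts per library. Dnajb3 held most of the rest at 1.23 and 0.99 TPM (43 and 35 counts). Hspb9, Dnajb7 and Dnajb13 had 3 or fewer counts per library, and Hspa1l had 7.55 and 21.9 expected counts. Hspa1l starts 546 bases from Hspa1a, and 9.57% of its 50-base windows also occur in Hspa1a, which was higher in replicate 2 as well.

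The small heat shock proteins held the smallest share of member TPM among the chaperone families, and their replicates lay furthest apart, with a median difference of 0.25 on the log2 scale over 4 genes with enough counts. Hspb1 stood at 19.4 and 22.7 TPM, Hspb8, a partner of Bag3 in clearing aggregates, at 11.2 and 13.0 TPM, and Hspb6 (HSP20) at 8.81 and 8.46 TPM. Hspb7, a small heat shock protein of heart and muscle, was at 0.68 TPM in the first library and at 2.99 TPM in the other. Its counts were 66 and 296, a 4.49-fold difference after scaling (counting interval 3.43 to 5.95). Hspb3, also known from muscle, had 3 and 17 counts (5.67-fold, 1.64 to 30.2), and Hspb2 had 26 and 35 (1.35-fold, 0.788 to 2.33), an interval that includes 1. Hspb6, the fourth gene of the muscle list, was 0.964-fold (0.838 to 1.11). Skeletal muscle markers were also higher in replicate 2, with a median of 2.61-fold over 7 genes, as were smooth muscle and pericyte markers, with a median of 2.12-fold over 6 genes, and their part in the result was not tested. Cryab, the small heat shock protein with a crystallin symbol, stood at 9.76 and 18.4 TPM, 1.77-fold higher in replicate 2 (1.52 to 2.07). Its gene overlaps Hspb2 by 1030 bases in the annotation.

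Apart from these, the replicates lay close together. With expected counts scaled by TMM (trimmed mean of M values) and a mean of at least 100 counts, 64 members could be compared, of which 28 were higher and 36 lower in replicate 2. Their median log2 ratio was -0.03, against -0.0035 over 12491 nuclear protein-coding genes with that count, and the median size of the difference was 0.12 on the log2 scale against 0.13. More than 2-fold higher in replicate 2 was 1 member, Hspb7 (1.56%), against 4.52% of those genes, and 0 members were more than 2-fold lower, against 0.104%. More than 1.5-fold higher were 3 members (4.69%), Hspa1a, Dnajc22 and Hspb7, against 7.87%, and 0 were more than 1.5-fold lower, against 0.656%. With counts this small, nothing is read from the difference.

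Dnajc22, a multi-spanning membrane protein, stood at 4.14 and 7.24 TPM, 1.78-fold higher in replicate 2 (1.5 to 2.1), where liver markers were also higher, with a median of 3.39-fold; their part in the result was not tested. Hspa1a was 1.68-fold higher (1.45 to 1.95). Next came Dnajb5 and Dnajb4, with 1.29-fold each, the intervals running from 1.13 to 1.47 and from 1.18 to 1.40. The lowest ratios were those of Dnajc17, at 0.839-fold (0.661 to 1.07), Hspa12b, at 0.846-fold (0.770 to 0.928), Dnajc11 and Dnajb14, both at 0.867-fold, and Dnajc8, at 0.888-fold. Even the lowest of the 64 ratios was thus closer to 1 than the 3 highest.

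**Figure D4:**
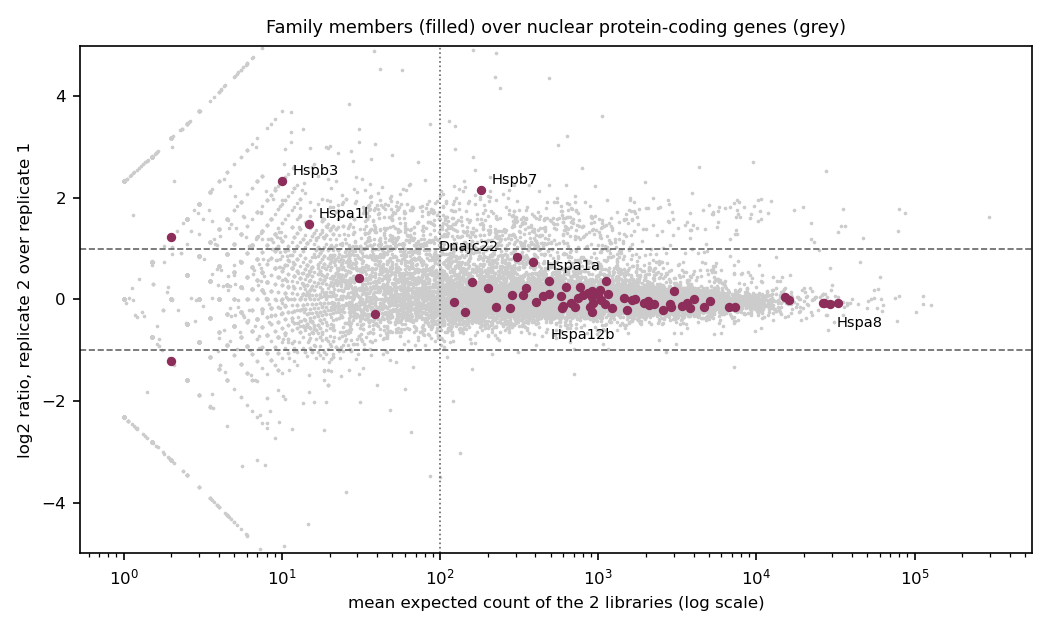
log2 ratio of replicate 2 over replicate 1 (scaled counts) against the mean expected count (logarithmic axis) for family members (dark points) over nuclear protein-coding genes (grey); dashed lines mark 2-fold and the dotted line 100 counts. Hspb7 is the one member beyond 2-fold to the right of the dotted line, and members above 1000 counts lie near 0.

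Of the 6 inducible genes 5 were higher in replicate 2, with a median of 1.13-fold, and Hsp90aa1 was lower (0.898-fold, 0.869 to 0.928). Of the 5 constitutive genes 4 were lower, with a median of 0.943-fold, and Hspa14 was 1.02-fold (0.919 to 1.13). Over all 12491 genes compared, 49.3% were higher in replicate 2, and for lists this short no difference was tested. Of 9 immediate early genes with enough counts all 9 were higher in replicate 2, with a median of 1.45-fold, and their part in the result was not tested. For the 11 genes of the wider inducible list, which adds Dnaja1, Dnajb4, Hspd1, Hspe1 and Hspb8, 8 were higher and 3 lower.

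**Figure D5:**
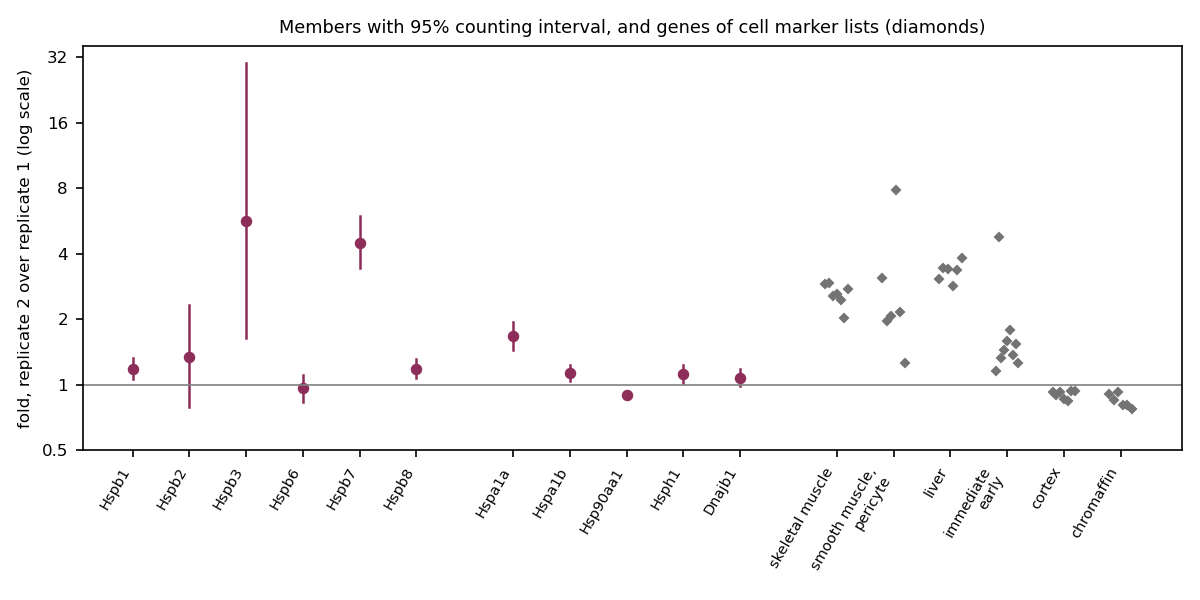
Fold of replicate 2 over replicate 1 (logarithmic axis) for small heat shock proteins and inducible members, with 95% counting intervals, and for single genes of marker lists (diamonds). Hspb7 and Hspb3 lie above all skeletal muscle markers in point value, most other members lie between 0.9 and 1.35, and the cortex and chromaffin markers lie below 1.

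The regulators and helpers of the chaperones were read as well. Hsf1, the main heat shock factor, stood at 13.2 and 12.6 TPM and Hsf2 at 4.33 and 5.74 TPM (1.43-fold, 1.25 to 1.63), while Hsf4 and Hsf5 were below 1 TPM. All 16 co-chaperones were at 1 TPM or more in both libraries, from Bag2 (5.74 and 5.23 TPM) to Bag6 (109 and 99.6 TPM), and none was 1.5-fold apart. Among them Bag3, the stress-inducible exchange factor, stood at 37.0 and 41.6 TPM and Stip1 (HOP), which links HSP70 to HSP90, at 36.4 and 35.6 TPM. Of 17 other chaperones 16 were expressed and Cryaa, a lens crystallin, had 0 counts; 13 of the 16 were lower in replicate 2, with Cryab the one beyond 1.5-fold. The genes with a heat shock symbol only were low to moderate: the exchange factor Hspbp1 stood at 13.3 and 12.2 TPM, Hspb11 (IFT25), a subunit of the ciliary transport complex, at 7.40 and 9.47 TPM, and Hspbap1 at 1.36 and 1.39 TPM.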

How the data were processed

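Per the file headers, the authors made tables per gene and per transcript from transcriptome alignments (mm10, GENCODE M21), with expected counts, TPM over all entries and the percent of each gene's level taken by a transcript. The authors' second transcript table, made from the reads and an index, holds estimated counts and TPM. Tools, versions and the strand setting are not stated in the labels or headers.

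Members were found by symbol and annotated type. Members, gene lists and the naming rule (all genes of the lists and of the HSP families, the 5 most abundant of each DnaJ class, the 5 highest and 5 lowest ratios, and members with a divided or disputed main transcript) were chosen with earlier results of these data known. Dnajc13, Dnajc2, Dnajc14, Dnajc24, Dnajc25, Dnajc27 and Dnaja4 were, where outside the rule, named after their values were seen. Levels are TPM. For ratios, expected counts were scaled with TMM in edgeR 4.0.16, log2 ratios had 0.5 counts added, and a mean of at least 100 counts was required. Folds of single genes used no added counts and have exact binomial (Clopper-Pearson) 95% intervals on rounded counts. These intervals, like the limit of 3 counts for a count of 0, cover counting error alone: the reads have no molecular identifiers. With 1 group of 2 libraries no test was made. Alternatives were DESeq2 1.42.0 size factors, scaling to library or spike-in totals, other thresholds and the second table. The ratio and interval code was tested on simulated data. R 4.3.3 and Python 3.11.15 were used.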

Additional observations from a re-analysis of the deposited data

Results flagged for a closer look

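Processed pseudogenes named after the members lie outside the comparisons, and 10 of 14 had 0 counts in both libraries. The other 4 were above the limit that a count of 0 allows, 3 counts, in both. Hspd1-ps3 had 254.23 expected counts in replicate 1 and 274.67 in replicate 2, equal to 0.932% and 1.05% of those of Hspd1. It shares 42.8% of the 50-base windows of Hspd1, and the second table gave it 15.1 and 16.9 counts. Hspa9-ps1 had 9 and 9, against 177 and 155 in the second table, Hspd1-ps4 had 6 and 10, and Dnajc19-ps had 3.06 and 7.46.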

How the results depend on the processing

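With 2 libraries of a single group, every ratio only describes these samples. The count of expressed members, 64, ran from 55 (threshold of 5 TPM) to 66 under its alternatives. The member share of TPM was 0.923% in the second table against 0.938%. Leaving out either library only returns the value of the other. The median log2 ratio of the members, -0.03, was -0.11 with the library total, -0.09 with spike-ins and 0.05 with the list mean. These shifts were smaller than 0.13, the median half-width of the counting interval of a single member. That width is not the error of a median over all members compared. The inducible minus constitutive difference was -2.74 with list means and -1.91 with protein-coding transcripts only (added after seeing the data). Protein-coding transcripts gave 2.33 for Hsp90ab1 over Hsp90aa1 and -0.52 for Dnaja2 over Dnaja1, and the second table gave 1.72 for the former. Members more than 2-fold apart numbered 3 at a minimum of 10 counts or with no minimum, and 0 at 1000 counts, where fewer genes are compared, and 3 members were over 1.5-fold apart. The inducible median ratio was 0.0134 at 1000 counts. The constitutive median was -0.16 with the library total and -0.14 with spike-ins, scalings that shift all ratios alike, by -0.08 and -0.06. The cause of the other differences was not tested. Of 55 single members, 16 moved beyond counting error with the library total, 8 with spike-ins, and 0 with DESeq2 size factors or the second table. Of 14 named transcript shares, 13 moved in the second table. No paired analysis was possible because there is 1 group.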
